A study of Mus musculus with 10 samples.

Results

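Olfm4 was examined beside 7 genes of neutrophil granules and cytosol, S100a8, S100a9, Ltf, Ngp, Camp, Lcn2 and Retnlg, in lamina propria macrophages of the mouse small intestine. The 8 genes were taken by name from the deposited gene table. Olfm4 was chosen by its lower CPM after stroke in these same libraries, and the other 7 because neutrophil precursors make them together with it. The table of 17279 genes held 4 of the 8, Olfm4, S100a8, Ngp and Retnlg, and S100a9, Ltf, Camp and Lcn2 were not analysed here. Of the 4, Olfm4 and Retnlg passed the filter on low counts.

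There were 10 libraries from mice labelled C57BL6/J, 5 after Sham surgery and 5 after permanent occlusion of the middle cerebral artery (pMCAO), all taken at 24 h. The age of the mice is not given in the sources used here. Macrophages were sorted by flow cytometry as CX3CR1-GFP+ cells from the peeled mucosa of the whole small intestine, so every library carried the reporter by which it was sorted, and the promoter and allele behind the reporter are named no further. A macrophage gate of this kind can hold monocytes as well, since both express Cx3cr1. Replicate 1 of each group has a name that marks a pool. The labels call the samples biological replicates but do not tie them to single mice, so p-values measure the spread between these samples.

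Olfactomedin 4, the product of Olfm4, is a secreted glycoprotein known from a pair of settings. In the gut epithelium it marks the stem cells at the crypt base and is induced by Notch, and in neutrophils it lies in the specific granules of a subset of cells. Granule proteins are made in waves during maturation in the bone marrow: myeloperoxidase and the serine proteases of primary granules come first, lactoferrin (Ltf), the cathelicidin precursor (Camp), lipocalin 2 (Lcn2) and neutrophilic granule protein (Ngp) of secondary granules next, and gelatinase-granule proteins last. S100a8 and S100a9 form calprotectin, the abundant calcium- and zinc-binding protein of the neutrophil cytosol, and Retnlg encodes a resistin-like protein of myeloid cells. Transcription factors of the C/EBP family drive many granule genes.

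The 4 measured genes are shown with the reference sequence around their start sites, so that the letters a Notch effector or a C/EBP factor can bind may be seen side by side. Each window is 300 bases of RefSeq on GRCm38.p6, from 250 bases before the annotated start to 50 bases into the gene, on the plus strand and 5′ to 3′, and capitals mark the motif matches. All 8 genes matched a RefSeq window. The motifs searched on both strands were TGGGAA (the core bound by RBPJ, the DNA-binding partner of Notch), TTGCNNAA (C/EBP), TATAAA (the box bound by TBP, called the TATA box), TTCNNNGAA (STAT) and CTTTGAT (TCF, the Wnt effector). The windows are Olfm4 at chr14:80000052-80000351, Ngp at chr9:110419558-110419857, S100a8 at chr3:90668821-90669120 and Retnlg at chr16:48872358-48872657.
Olfm4 promoter: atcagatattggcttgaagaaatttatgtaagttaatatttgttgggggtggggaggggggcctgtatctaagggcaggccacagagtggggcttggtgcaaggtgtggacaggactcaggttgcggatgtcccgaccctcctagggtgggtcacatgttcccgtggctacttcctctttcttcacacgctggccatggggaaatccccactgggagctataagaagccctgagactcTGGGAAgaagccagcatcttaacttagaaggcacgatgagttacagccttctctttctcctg
Ngp promoter: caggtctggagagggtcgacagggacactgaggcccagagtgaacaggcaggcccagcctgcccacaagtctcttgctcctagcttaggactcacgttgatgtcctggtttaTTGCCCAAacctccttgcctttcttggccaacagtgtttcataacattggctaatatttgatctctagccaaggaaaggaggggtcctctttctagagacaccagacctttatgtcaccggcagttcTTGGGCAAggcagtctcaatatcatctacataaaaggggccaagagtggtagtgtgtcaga
S100a8 promoter: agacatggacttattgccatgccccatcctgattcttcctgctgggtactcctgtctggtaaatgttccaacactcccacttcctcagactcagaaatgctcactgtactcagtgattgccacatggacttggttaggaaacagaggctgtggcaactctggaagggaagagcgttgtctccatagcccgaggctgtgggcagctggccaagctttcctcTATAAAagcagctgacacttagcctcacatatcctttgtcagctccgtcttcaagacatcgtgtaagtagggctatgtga
Retnlg promoter: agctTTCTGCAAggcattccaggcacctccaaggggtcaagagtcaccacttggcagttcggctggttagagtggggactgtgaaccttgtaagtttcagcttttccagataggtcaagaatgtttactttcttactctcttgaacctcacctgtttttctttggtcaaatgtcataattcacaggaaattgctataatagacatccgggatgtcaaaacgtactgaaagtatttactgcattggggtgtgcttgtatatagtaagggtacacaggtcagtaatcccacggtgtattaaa
The Olfm4 window held 1 RBPJ core, 12 bases before the start, and none of the other motifs. The Ngp window held 2 C/EBP matches, 138 and 11 bases before the start, the Retnlg window held 1, 246 bases before it, and the S100a8 window held a TATA box 30 bases before its start. Of the windows not printed, those of Ltf, Lcn2 and S100a9 held 1 C/EBP match each, and those of S100a9 and Camp held 1 RBPJ core each. The Camp core began inside the gene, at base 15. The S100a9 window also held the letters TATAAA, which began at base 1 of the gene and not before its start. Among 32851 mouse promoters of the same length, 25.6% held the RBPJ core, 10.8% the C/EBP motif, 13.6% the TATA box, 8.30% the STAT motif and 3.73% the TCF motif. A match describes letters in a window and not a bound site.

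In GENCODE M21 on GRCm38, Olfm4 (ENSMUSG00000022026) lies on chromosome 14 from 79984081 to 80023139 on the plus strand, with 2962 exon bases, and the RefSeq start used above lies inside this span. The lincRNA Gm6999, on the same strand, shares exon 2 of Olfm4, from 80006174 to 80006326, which is 5.17% of the exon bases of Olfm4. Reads from that exon cannot be assigned to 1 of the 2 genes, and Gm6999 was not analysed here. S100a8 (ENSMUSG00000056054) lies on chromosome 3 from 90668978 to 90670035, Ngp (ENSMUSG00000032484) on chromosome 9 from 110419747 to 110423012 and Retnlg (ENSMUSG00000022651) on chromosome 16 from 48872621 to 48874496, all on the plus strand. None of the 7 other genes overlapped an annotated gene.

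Total counts per library ranged from 18894151 to 60665972 in the Sham group and from 6430643 to 28672285 in the pMCAO group, so that low counts were less precise after pMCAO. Markers of the macrophage label were read as levels, with no comparison that tests the label. The 12 genes of the macrophage list, among them Lyz2, H2-Ab1 and C1qb, summed to between 13702 and 22736 CPM (counts relative to the library's sum of all listed genes) in Sham and between 13307 and 20853 CPM in pMCAO. Sham 5 and pMCAO 4 stood apart from the rest by Xist, the RNA of the inactive X chromosome, at 2237 and 4686 CPM against 1.27 to 4.88 CPM in the other 8 libraries. Beside the results that they moved most, values without both are given.

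Olfm4 was present in every library. In the Sham libraries 1 to 5 it stood at 140.9, 149.2, 119.8, 131.6 and 92.1 CPM, from 4137, 5061, 4077, 2486 and 5587 counts. In the pMCAO libraries 1 to 5 it stood at 75.4, 34.9, 36.5, 5.08 and 40.6 CPM, from 485, 1001, 412, 59 and 1096 counts. All 5 pMCAO libraries lay below all 5 Sham libraries, pMCAO 4 was far below the rest of its group, and pMCAO 1 and Sham 5 came closest to each other. The means were 126.7 ± 22.2 CPM (SD, n = 5) in Sham and 38.5 ± 25.01 CPM (SD, n = 5) in pMCAO, a ratio of 3.29. The gap between the groups closed to 72.3 CPM (lowest Sham) against 71.1 CPM (highest pMCAO) when libraries were scaled by TMM, which corrects totals for composition.

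The log2 fold change of Olfm4 in edgeR was −1.78 (approximate SE 0.49). Because Olfm4 was chosen for this difference, it is given as a description with no test. In the same fit 0 of 16949 genes (0%) passed an FDR of 0.05 after Benjamini-Hochberg adjustment, with 799 genes (4.71%) at an unadjusted p under 0.05, of which 416 (2.45% of those tested) were lower after pMCAO, and DESeq2 called 3 genes, none of them among the 8. Groups in which every pMCAO library lay below every Sham library were found for 101 of 16949 genes (0.596%) on the CPM scale and for 91 (0.537%) with TMM. The log2 fold change was −1.50 without pMCAO 4 and −1.65 without both libraries with high Xist. In sorted bulk RNA, fewer cells that hold Olfm4 and less Olfm4 RNA in each cell cannot be told apart.

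**Figure D1:**
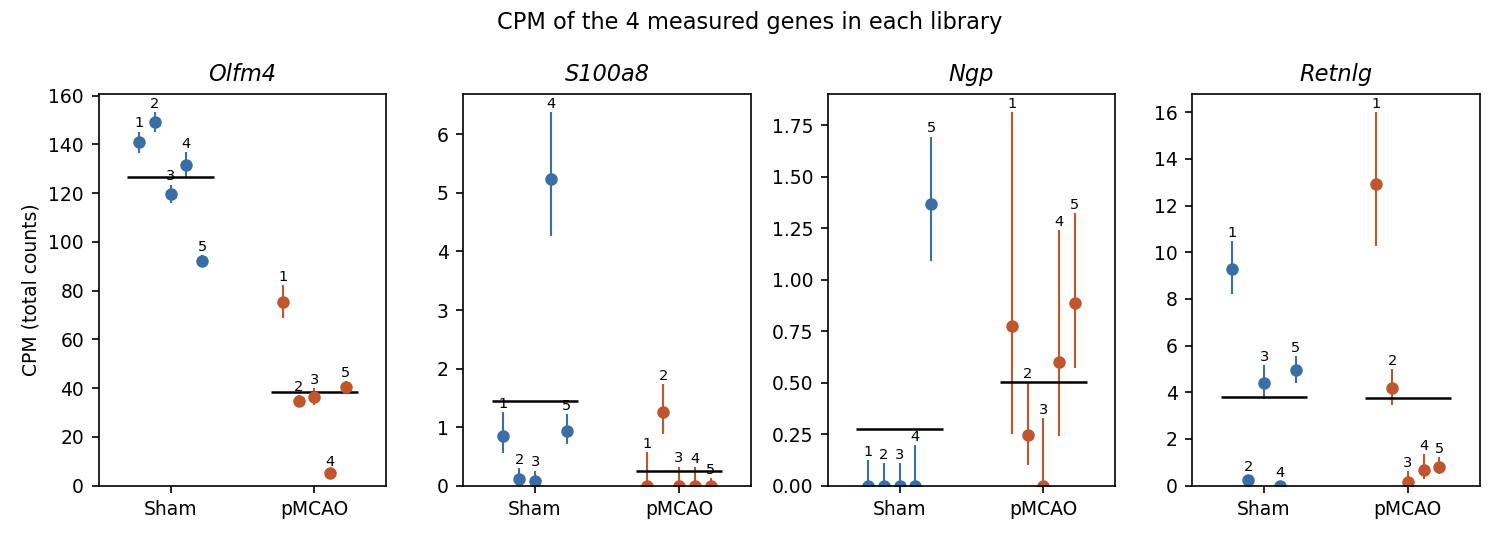
CPM of Olfm4, S100a8, Ngp and Retnlg (vertical axes, scaled to total counts) in the 5 Sham and 5 pMCAO libraries. Points are libraries with their replicate number, vertical bars are 95% exact binomial intervals of the count and horizontal lines are group means. Olfm4 is at 92.1 to 149.2 CPM in Sham and at 5.08 to 75.4 CPM in pMCAO, whereas the other 3 genes stay under 13 CPM and overlap between the groups.

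S100a8, one of the most abundant transcripts of a mature neutrophil, was near the lower limit of these libraries. It stood at 0.851, 0.118, 0.0881, 5.24 and 0.940 CPM in Sham 1 to 5, from 25, 4, 3, 99 and 57 counts. In pMCAO it had 36 counts (1.26 CPM) in library 2 and 0 counts in the other 4, which allow up to 0.467, 0.265, 0.259 and 0.111 CPM in libraries 1, 3, 4 and 5. Sham 4 held most of the Sham signal and pMCAO 2 all of the pMCAO signal, and the groups overlapped. S100a8 did not pass the filter. In a fit without the filter its log2 fold change was −2.39 (SE 1.57), with an edgeR FDR of 0.93, and it was −0.61 without Sham 4. Without pMCAO 2 no pMCAO library had a count, and no fold is given.

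Ngp, a cathelicidin-related protein of secondary granules, had 0 counts in 4 of the 5 Sham libraries, each allowing up to 0.0881 to 0.159 CPM, and 83 counts (1.37 CPM) in Sham 5. In pMCAO 1 to 5 it stood at 0.778, 0.244, 0, 0.603 and 0.889 CPM, from 5, 7, 0, 7 and 24 counts. It was thus counted in 1 Sham library and in 4 pMCAO libraries, with the highest value in Sham. Without the filter its log2 fold change was 1.02 (SE 1.49), with an edgeR FDR of 0.955. Without Sham 5 no Sham library had a count, and no fold is given.

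Retnlg was the highest of S100a8, Ngp and Retnlg in most libraries. It stood at 9.30, 0.236, 4.41, 0 and 4.96 CPM in Sham 1 to 5 and at 12.9, 4.19, 0.177, 0.689 and 0.815 CPM in pMCAO 1 to 5. Both pools, replicate 1 of each group, held the highest value of their group, and the groups overlapped over nearly their whole range. The means were 3.78 ± 3.84 CPM (SD, n = 5) and 3.75 ± 5.36 CPM (SD, n = 5), and the log2 fold change was −0.0094 (SE 1.23), with an edgeR FDR of 0.999. Its direction turned when Sham 1 was left out (0.75), when any of Sham 3, Sham 5 and pMCAO 3 to 5 was left out and when both libraries with high Xist were left out (0.28).

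S100a8, Ngp and Retnlg did not rank the libraries as Olfm4 did. Their CPM summed to between 0.354 and 10.1 in Sham (median 5.24) and to between 0.177 and 13.7 in pMCAO (median 1.70). In log2 CPM with the group means subtracted, over the 10 libraries, Olfm4 correlated with S100a8 at r = 0.12 (exact permutation p = 0.715, rho = 0.092 with p = 0.788), with Ngp at r = −0.32 (exact permutation p = 0.315, rho = −0.28 with p = 0.363) and with Retnlg at r = 0.12 (exact permutation p = 0.763, rho = −0.030 with p = 0.942). After Benjamini-Hochberg adjustment over the 6 pairs of measured genes, p was 0.916 for each of these r and 0.955 for each of these rho. Without pMCAO 4 and Sham 2, the libraries farthest from the median of Olfm4, r was 0.035, −0.41 and 0.022. Of the 3 genes, S100a8 and Ngp are at 0 counts in 4 libraries of 1 group, and these correlations rest on few reads.

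Per length, Olfm4 was among the more abundant genes of the Sham libraries. Its CPM per kb of exon lay above that of 90.4% to 95.2% of 17193 genes in Sham and above that of 33.1% to 89.6% in pMCAO, with pMCAO 4 at the lower end. The median level was 44.4 CPM per kb in Sham and 12.3 in pMCAO. Retnlg stood at 7.43 and 1.37 CPM per kb, S100a8 at 1.23 and 0, and Ngp at 0 and 0.494 in the same order. In both groups Olfm4 was thus the highest of the 4 in median.

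**Figure D2:**
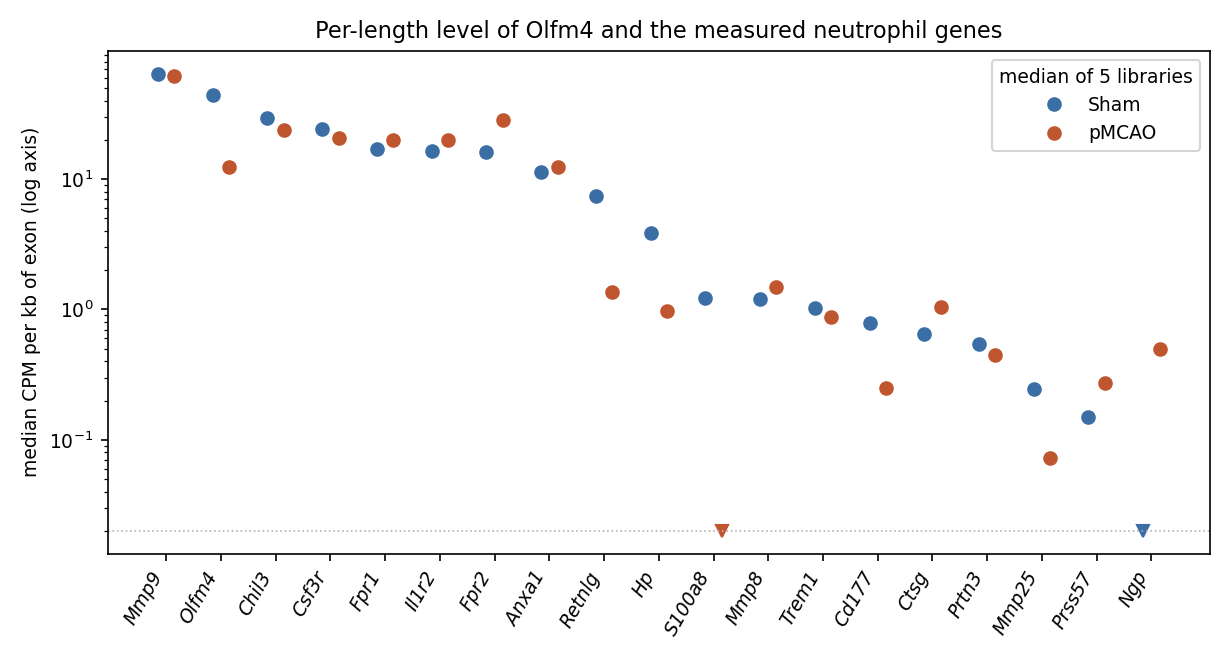
Median CPM per kb of exon (log axis) of Olfm4, S100a8, Ngp, Retnlg and the 15 measured genes of the neutrophil lists in 5 Sham and 5 pMCAO libraries. Triangles on the dotted line mark medians of 0. Olfm4 is second only to Mmp9 in Sham at 44.4 CPM per kb and is at 12.3 in pMCAO, next to Anxa1.

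Genes of the other granules and of the neutrophil surface were read from lists by role. Of 31 neutrophil genes 15 were in the table, and myeloperoxidase (Mpo) and elastase (Elane), the surface antigen Ly6g, the chemokine receptor Cxcr2 and the stefins Stfa1 to Stfa3 were not analysed here. The 3 measured primary-granule genes, the proteases Prtn3, Ctsg and Prss57, each stayed at or below 3.22 CPM in every library. The 6 of the secondary and gelatinase list were led by Mmp9 (225.5 ± 132.7 CPM in Sham and 226.5 ± 83.8 CPM in pMCAO, SD, n = 5 each), the gelatinase that macrophages also make, and Chil3 (46.3 ± 11.8 and 38.7 ± 22.7 CPM, SD, n = 5 each), a chitinase-like protein shared with monocytes. Csf3r, the receptor for G-CSF, which monocytes carry too, stood between 52.8 and 133.5 CPM over all libraries.

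Among these 15 genes 8 were higher and 7 lower after pMCAO, with a median log2 fold change of 0.029. Beside them, 8367 of all 16949 genes tested were higher and 8582 lower, with a median of −0.0059. None of the 15 passed the FDR of 0.05 in edgeR, nor an unadjusted p under 0.05, and their summed level was 333.2 to 743 CPM in Sham and 406.8 to 599.5 CPM in pMCAO. The number of lower genes ran from 4 to 9 of 15 and the median from −0.11 to 0.079 as libraries were left out, with −0.038 without both libraries with high Xist. The median was also below 0 without Sham 4, Sham 5, pMCAO 3 or pMCAO 5. Their fold changes ran from −1.16 for haptoglobin (Hp, chosen after its values were seen) to 0.65 for the formyl peptide receptor Fpr2 (likewise). Per kb, the ratio of Olfm4 to Csf3r was 1.66 to 2.22 in Sham and 0.0833 to 0.836 in pMCAO, and that to Mmp9 was 0.383 to 1.74 and 0.0192 to 0.567. The difference of Olfm4 is part of these ratios, so they describe its level beside the receptor and the gelatinase and test nothing.

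Regulators and receptors of granule proteins were measured in nearly full lists. Of 6 regulators 5 had a lower and 1 a higher fold change (median −0.18), with the myeloid factors Runx1 (318.4 ± 63.0 against 323 ± 93.4 CPM, SD, n = 5 each), Spi1 (112.6 ± 12.4 against 108.5 ± 12.7) and Cebpb (67.0 ± 44.5 against 40.7 ± 17.5) highest, and Cebpe, the factor of secondary-granule genes, was not analysed here. None of the 6 passed in edgeR, nor an unadjusted p under 0.05. Of 8 receptors 6 were higher and 2 lower (median 0.19). P2rx7, a receptor linked to the Camp product, differed by 0.0065 in log2 fold change (SE 0.17, edgeR FDR 0.999). The scavenger receptors Lrp1, which takes up lactoferrin, and Cd36 were at 0.45 (SE 0.20) and 0.46 (SE 0.53), both with an edgeR FDR over 0.92.

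Genes tied to Olfm4 itself were measured in full. Of its 8 partners and inducers 5 were higher and 3 lower, with a median of 0.056, and none passed in edgeR. Ctsc, the cathepsin that Olfm4 binds and inhibits, was the highest at 1080 to 2533 CPM over all libraries. Nfkb1, a subunit of the inducer NF-κB, stood at 147.9 ± 33.3 and 157.2 ± 38.8 CPM (SD, n = 5 each). Ndufa13 (GRIM-19), which binds Olfm4, stood at 119.9 ± 30.3 and 80.9 ± 25.2 CPM (SD, n = 5 each), with a log2 fold change of −0.55 (SE 0.25, edgeR FDR 0.922). Of 7 other olfactomedin genes, 2 were in the table, Olfm1 at −0.046 (SE 0.57) and Olfml3 at 0.62 (SE 0.39).

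Since Olfm4 also marks crypt stem cells, epithelial lists were read beside it. All 10 crypt stem genes had a lower fold change after pMCAO, from −1.43 to −0.21 with a median of −0.62, beside 8582 of all 16949 genes tested. The summed level of the 10 was 108.7 to 132.4 CPM in Sham and 65.2 to 124.7 CPM in pMCAO. None of the 10 passed the FDR in edgeR and 1 had an unadjusted p under 0.05, beside 799 of all genes tested (4.71%). The highest were Slc12a2 (68.2 ± 9.09 against 60.2 ± 16.2 CPM), a chloride cotransporter that other cells also express, Prom1 (16.5 ± 6.92 against 6.83 ± 5.08 CPM) and the Wnt-feedback ligase Rnf43 (7.52 ± 3.97 against 4.64 ± 2.13 CPM, SD, n = 5 each). Lgr5, the receptor that defines these stem cells, stood at 2.25 to 6.63 CPM in Sham and at 0.517 to 7.62 CPM in pMCAO.

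Of the 17 general epithelial genes 13 were lower and 4 higher (median −0.67), beside 8582 lower and 8367 higher of all 16949 genes tested. The sum of the 17 ranged from 762.9 to 3340 CPM in Sham and from 251.6 to 1922 CPM in pMCAO, lowest in pMCAO 4. None passed in edgeR, nor an unadjusted p under 0.05. The highest were the lectin Reg3b, the fatty acid carrier Fabp2 and the mucin Muc2, each with an SE over 0.59 on its log2 fold change. Of the Paneth genes 5 of 6 were higher (median 0.71), and summed to 90.9 to 550.4 CPM in Sham and to 66.8 to 1005 CPM in pMCAO. The Paneth median was 1.16 without the libraries with high Xist and 0.20 without pMCAO 5, where 3 of 6 were lower, and 0 to 3 of 6 were lower over all sets that left out libraries. Across the same sets, 9 to 10 of 10 crypt genes and 12 to 15 of 17 epithelial genes had a lower fold change, and 9 occurred only without Sham 2. The crypt stem and epithelial medians were below 0 and the Paneth median above it, with no gene past the FDR in edgeR, and their part in the difference of Olfm4 was not tested.

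Per kb, the ratio of Olfm4 to Epcam, the epithelial adhesion molecule, was 0.488 to 1.46 in Sham and 0.221 to 0.761 in pMCAO, with overlap. The ratio to Lgr5 was 48.2 to 217 in Sham and 26.5 to 51.0 in pMCAO, and overlapped through Sham 5 and pMCAO 3. The choice of Olfm4 for its difference lowers both ratios in pMCAO, so they describe levels and bear on no source of the RNA.

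**Figure D3:**
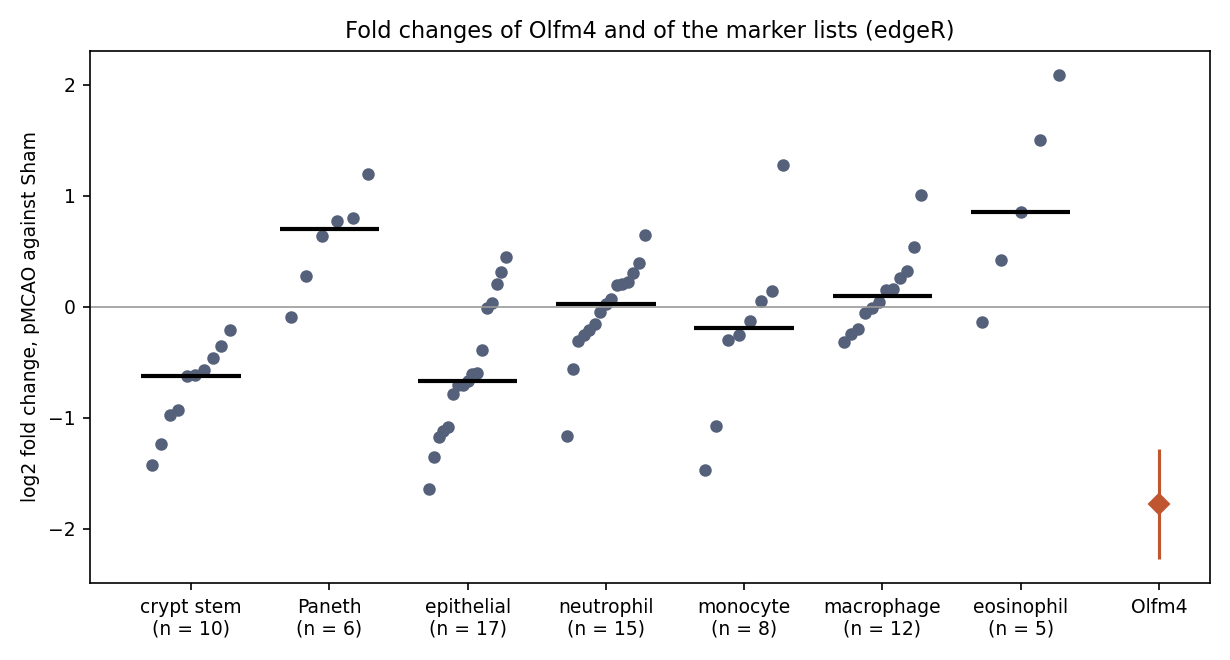
Log2 fold changes in edgeR, pMCAO against Sham (vertical axis), of the tested genes of 7 marker lists (points, n in the labels) with list medians (lines) and of Olfm4 (diamond, bar ± SE). The neutrophil genes are spread around a median of 0.029, the crypt stem genes all lie below 0 with a median of −0.62, and Olfm4 is at −1.78.

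Blood-cell lists that the gate could hold were counted in the same way. Of 8 monocyte genes 5 were lower and 3 higher (median −0.19), with the chemokine receptor Ccr2 at 783.5 ± 335.8 and 889.6 ± 320.7 CPM and Plac8 at 304.1 ± 149.6 and 145.1 ± 79.8 CPM (SD, n = 5 each), the latter with a log2 fold change of −1.08 (SE 0.41, edgeR FDR 0.922). Of 12 macrophage genes 7 were higher and 5 lower (median 0.10). As libraries were left out, 3 to 8 of the 12 were lower and the median ran from −0.20 to 0.21, below 0 without both libraries with high Xist (8 lower) and without Sham 2, Sham 5, pMCAO 3 or pMCAO 4. The monocyte median ran from −0.56 to 0.25, above 0 without Sham 2 or pMCAO 3. Of 5 measured eosinophil genes 4 were higher (median 0.85), led in level by the ribonuclease Ear2 at 25.2 ± 7.29 and 45.7 ± 14.1 CPM (SD, n = 5 each), with a log2 fold change of 0.85 (SE 0.21, edgeR FDR 0.922). No gene of these lists passed the FDR in edgeR. An unadjusted edgeR p under 0.05 was found for 2 of 8 monocyte and 2 of 5 eosinophil genes, beside 799 of all 16949 genes tested (4.71%). The eosinophil counts were not repeated with libraries left out. The eosinophil peroxidase Epx was not analysed here.

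Within the groups, Olfm4 was set against the mean log2 CPM of 8 lists, with group means subtracted. These relations were chosen after values had been seen. Olfm4 followed the crypt stem list at r = 0.89 (exact permutation p = 0.00042, adjusted over 8 relations 0.0033) and rho = 0.90 (exact permutation p = 0.00076, adjusted 0.0061), over 10 libraries. Without pMCAO 4 and Sham 2, the farthest from the median of Olfm4, r was 0.74 (exact permutation p = 0.0694). It was 0.65 (exact permutation p = 0.26) without the libraries with high Xist, Sham 5 and pMCAO 4. The relation was thus weaker, over fewer libraries, when either pair was left out. With pMCAO 4 alone left out, r was 0.76 (exact permutation p = 0.0128). With Sham 5 or Sham 2 alone left out, it was 0.88 (exact permutation p = 0.0021 and 0.0014). Over all 10 libraries scaled to total counts without TMM, r was 0.89 with a larger p (exact permutation p = 0.019, not adjusted over the 8 relations).

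For the neutrophil list r was 0.51 (exact permutation p = 0.207, adjusted 0.551) and rho was 0.35 (exact permutation p = 0.28, adjusted 0.512). It turned to −0.092 without the 2 farthest libraries and to −0.27 without those with high Xist. For the epithelial list r was 0.51 (exact permutation p = 0.38, adjusted 0.761) and rho 0.43, and r was 0.063 without the 2 farthest. The regulators gave r = 0.39, the Paneth list 0.38, the eosinophil list 0.11, the macrophage list −0.12 and the monocyte list −0.21, with adjusted exact permutation p between 0.205 and 0.783. Without the 2 farthest libraries these were 0.73, −0.095, −0.16, 0.69 and −0.45 in the same order, so that the regulator and macrophage lists then stood close to the crypt stem list (0.74).

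**Figure D4:**
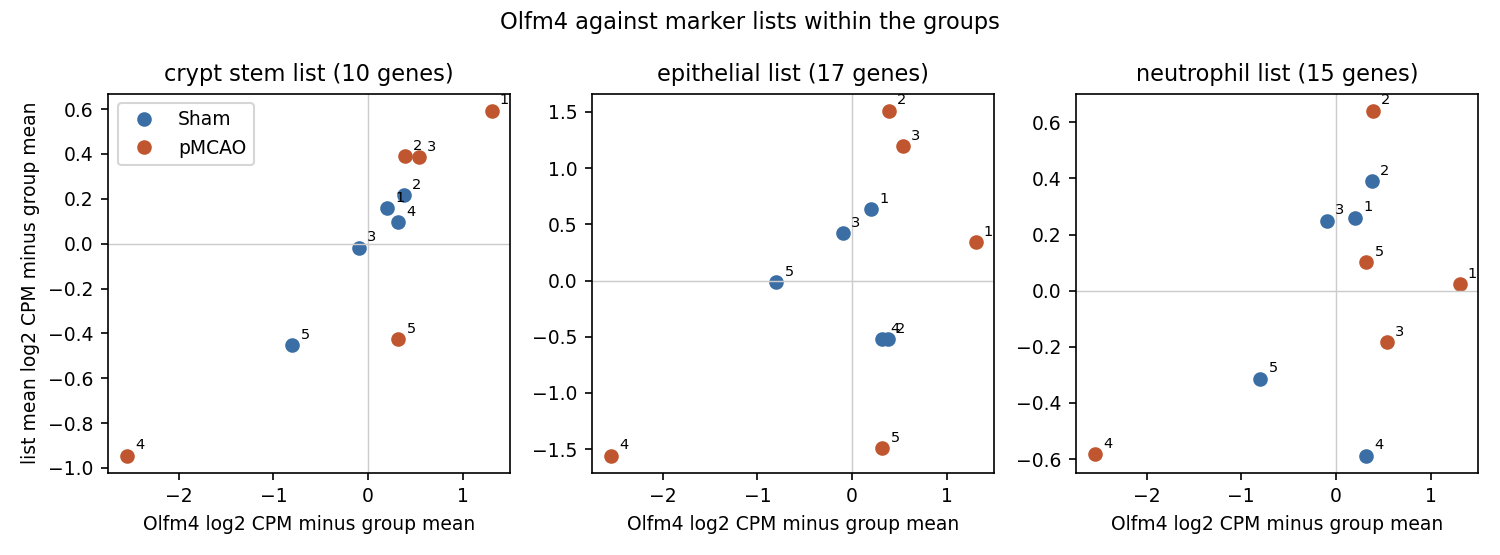
Olfm4 (horizontal axis) against the mean of the crypt stem, epithelial and neutrophil lists (vertical axes), all in log2 CPM minus the group mean, 1 point per library with its replicate number. pMCAO 4 is at the lower left in each panel, and the crypt stem panel (r = 0.89) is the tightest of the 3.

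Gene by gene, 9 of 10 crypt genes correlated positively with Olfm4 after subtraction of group means (median r = 0.44), with Lgr5 highest at 0.84 and the receptor Ephb2 lowest at −0.23. For 15 neutrophil genes the median was 0.22 with 10 positive, and for all 16948 other tested genes it was −0.017. Without the libraries with high Xist the medians were 0.39 for crypt genes (7 of 10 positive), −0.12 for neutrophil genes (7 of 15 positive) and −0.069 for epithelial genes (7 of 17 positive, from 16 of 17 and 0.48 with them). In that set Lgr5 was at 0.41, Sox9 was the highest crypt gene at 0.67 and Rnf43 the lowest at −0.69, from 0.68 over all 10 libraries.

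The genes with the pattern most like Olfm4 over the 10 libraries, group means subtracted, were Clca3b (r = 0.97), Uty (0.96), Eif2s3y (0.95), Ddx3y (0.95) and Kdm5d (0.95). The latter 4 lie on the Y chromosome and were nearly at 0 in pMCAO 4. In Sham 5, the other library with high Xist, they were not near 0. Their lowest Sham values were 29.4 (Uty), 31.1 (Eif2s3y), 68.8 (Ddx3y) and 38.4 CPM (Kdm5d). The 2 libraries with high Xist thus differed in their Y-chromosome RNA. The list was wholly replaced without the libraries with high Xist, where the closest 5 (r = 0.91 to 0.96) shared 0 genes with it. In that set the r of the 4 Y-chromosome genes was between −0.035 and 0.24, while that of Clca3b, a chloride channel accessory gene, was 0.75. Clca3b stood at 76.0 to 119.7 CPM in Sham and at 4.83 to 81.8 CPM in pMCAO, lowest, like Olfm4, in pMCAO 4. Without subtraction the genes closest to Olfm4 included Clca3b (r = 0.98), Kif11 (0.97), Gm15148 (0.92) and Fam162a (0.92), an order that contains the difference by which Olfm4 was chosen.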

How the data were processed

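The data are RNA sequencing libraries of sorted small-intestinal lamina propria macrophages, 5 Sham and 5 pMCAO at 24 h, made from 2.0 ng of total RNA after cleavage of ribosomal RNA. The authors' deposited table gives raw counts as whole numbers for each gene that it lists. Beside them it gives CPM values, which the authors obtained by dividing by each library's sum of listed genes. The submitters' processing notes name STAR, featureCounts, limma and GRCm38 (mm10), without versions, and strand is not given in the sources used here. Each of the 17279 listed genes has at least 10 counts in at least 2 libraries. The deposited columns of the authors' own comparison (log2 fold change, mean expression, p-value and FDR) were not used.

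The 8 genes and all lists were chosen with earlier results of these data known. Counts were filtered with filterByExpr (16949 genes kept), scaled by TMM and fitted with edgeR 4.0.16 (R 4.3.3), whose quasi-likelihood F-test compared pMCAO with Sham and took no further term. Each SE of a log2 fold change is approximate, the absolute log2 fold change divided by the square root of the F statistic. The filter was also dropped for S100a8 and Ngp, which failed it. Levels are CPM of total counts, with exact binomial intervals (95%) and a separate limit of 3 counts for a count of 0, both covering counting error only. That limit lies below the upper end of the interval for a count of 0. Correlations used log2 CPM with a prior count of 2 and exact two-sided permutations within the groups (Python 3.11.15, scipy 1.17.1). Named genes are the 8 members, up to 3 of each list by mean CPM, defining markers, those most like Olfm4 and Xist; others were chosen after their values were seen, and an item under this rule is not reported here. Alternatives were DESeq2 1.42.0, limma-voom 3.58.1 with and without quality weights, upper-quartile scaling, no filter, more than 1 CPM in at least 5 libraries, a replicate block and leaving out libraries. On simulated data of 16475 genes for this comparison, edgeR recovered 93 of 190 genes changed 4-fold (48.9%), with 4 false calls.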

Additional observations from a re-analysis of the deposited data

Results flagged for a closer look

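Of 24 groups of 5 libraries examined, 4 had a library at 1 end whose gap to the nearest other library, divided by the range of the group, was above 0.71. The number expected by chance, about 1.2, holds for independent groups without ties. These groups share libraries and some are tied at 0 counts, so no excess is read from it. For Olfm4 the lowest pMCAO library, pMCAO 4 at 5.08 CPM, stood apart with 0.744 on the log2 scale. For S100a8 pMCAO 2 was the highest at 1.26 CPM with a value of 1, because the other 4 libraries had 0 counts. For Ngp Sham 5 was the highest at 1.37 CPM, likewise with a value of 1 over 4 libraries at 0. For the mean of the eosinophil list Sham 4 was the lowest, with 0.882. pMCAO 4 and Sham 5 are also the 2 libraries with high Xist, and the part of that difference in these values was not tested.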

How the results depend on the processing

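The log2 fold change of Olfm4 stayed negative under every alternative run, from −2.14 to −1.50, and the medians of the crypt stem and epithelial lists stayed negative as well (−0.93 to −0.44 and −1.33 to −0.39). The number of genes called was 0 in edgeR and in every alternative except DESeq2, which called 3, with the cause not tested. The fold change of Retnlg reversed with DESeq2 (0.038) and when both Xist-rich libraries were dropped (0.28), and ran from −1.22 to 0.75 as single libraries were left out. The labels do not say that a replicate number marks a shared batch or day. Deviations of same-numbered libraries correlated at 0.046, 0.34, −0.0055, 0.23 and 0.37 for numbers 1 to 5, not all over 0.1, so the numbers were not taken as pairs. Deviations of libraries with different numbers correlated at −0.31 to 0.29, so that numbers 2 (0.34) and 5 (0.37) lay above all of these. Of the 10 libraries, 5 correlated best with their own number, and a pairing of some of the libraries is not excluded. In a fit that took replicate numbers for blocks, the log2 fold change of Olfm4 was −1.98, that of Retnlg 0.18, that of S100a8 −4.72 and that of Ngp 3.63, the list medians were −0.061 (neutrophil), −0.74 (crypt stem) and −1.04 (epithelial), and 0 genes were called (smallest FDR 0.173 against 0.922 unblocked, and 1303 against 799 genes at an unadjusted p under 0.05).

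Without the libraries with high Xist the correlation of Olfm4 reversed with S100a8 (−0.080) and Ngp (0.26), and with the neutrophil list (−0.27, and −0.092 without the 2 farthest libraries). That with the crypt stem list weakened to 0.65 and 0.74 in the same order. For Retnlg, Spearman's rho was −0.030. Leaving out single libraries gave −0.089 to 0.23 for S100a8 (negative without pMCAO 4), −0.51 to −0.17 for Ngp, −0.12 to 0.24 for Retnlg (negative without pMCAO 1 or pMCAO 4), 0.76 to 0.99 for the crypt stem list and 0.063 to 0.67 for the neutrophil list. Counts of S100a8 and Ngp, 0 in 4 libraries of 1 group, limit what can be read for these genes.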
